A study of Mus musculus with 10 samples.

Results

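The genes described here were App, its relatives Aplp1 and Aplp2, and the genes for 6 proteins that cut or sort their products: Bace1, Psen2, Ncstn, Aph1a, Adam10 and Sorl1. The members were chosen by name, as the rows whose Ensembl identifier carried those 9 symbols, out of 56884 gene identifiers in the count table. All 9 had enough counts to be among the 17622 genes tested. RNA was sequenced from the hippocampus of 10 female mice, 1 library per mouse, all of the P301S line (PS19, genotype hTau), whose transgene expresses mutant human Tau from the mouse Prnp promoter. No APP transgene was present in the line, so App here is the endogenous mouse gene. The females kept their ovaries. From 6 months of age, 5 of them carried a subcutaneous implant packed with 10 mm of dihydrotestosterone (DHT), an androgen that cannot be converted to estrogen, and the other 5 carried a void implant without DHT, in each case for 12 weeks. Tissue was taken at 9 to 9.5 months.

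APP is a membrane protein of neurons and other cells with a large outer part and a short tail inside the cell, and APLP1 and APLP2 share this layout but lack the amyloid-beta stretch. An alpha secretase, mainly ADAM10 in neurons, cuts APP within that stretch, whereas BACE1, the beta secretase, cuts at its start. What remains in the membrane is cut by gamma secretase, a complex of a presenilin, nicastrin (Ncstn), an APH1 protein and PEN2 (Psenen), and the beta route followed by this cut releases amyloid-beta. SORL1 is a sorting receptor that returns APP from endosomes and so limits its cleavage. The comparison asked whether these transcripts differed between DHT-treated and void-treated females.

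Promoter sequence is shown for 4 of the members on which the results turn: App and Adam10, whose levels moved in opposite directions from mouse to mouse, and Ncstn and Aph1a, gamma secretase genes with 2 of the 3 highest fold changes among the members. Psen2, the other of those 3 genes, had a higher fold change than Ncstn and is not shown. Each run is the 250 bases before the annotated start, 5′ to 3′ on the gene's strand, from RefSeq in build GRCm38.p6, where an entry was found for 8 of the 9 members. Capitals mark 3 six-letter motifs searched on both strands: AGGTCA, the half-site read by many nuclear receptors; AGAACA, the androgen response half-site (TGTTCT on the other strand); and GGGCGG, the GC box (CCGCCC on the other strand). Adjoining GC boxes may overlap.
App (chr16:85173708-85173957, minus strand): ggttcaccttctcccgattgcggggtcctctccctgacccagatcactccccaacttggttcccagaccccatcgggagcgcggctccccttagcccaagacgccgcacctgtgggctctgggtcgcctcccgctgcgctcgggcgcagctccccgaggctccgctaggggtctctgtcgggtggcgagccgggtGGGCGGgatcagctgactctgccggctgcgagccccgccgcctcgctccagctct
Adam10 (chr9:70678732-70678981, plus strand): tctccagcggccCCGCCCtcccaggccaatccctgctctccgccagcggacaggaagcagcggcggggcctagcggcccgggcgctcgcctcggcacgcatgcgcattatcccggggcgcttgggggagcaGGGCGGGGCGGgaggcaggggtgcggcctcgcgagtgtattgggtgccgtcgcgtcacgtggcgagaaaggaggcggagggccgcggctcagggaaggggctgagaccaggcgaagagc
Ncstn (chr1:172082750-172082999, minus strand): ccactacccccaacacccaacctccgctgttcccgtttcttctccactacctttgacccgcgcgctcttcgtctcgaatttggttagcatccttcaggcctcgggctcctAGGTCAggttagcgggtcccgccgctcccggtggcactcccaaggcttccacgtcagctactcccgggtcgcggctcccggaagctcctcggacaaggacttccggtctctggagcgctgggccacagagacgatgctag
Aph1a (chr3:95893671-95893920, plus strand): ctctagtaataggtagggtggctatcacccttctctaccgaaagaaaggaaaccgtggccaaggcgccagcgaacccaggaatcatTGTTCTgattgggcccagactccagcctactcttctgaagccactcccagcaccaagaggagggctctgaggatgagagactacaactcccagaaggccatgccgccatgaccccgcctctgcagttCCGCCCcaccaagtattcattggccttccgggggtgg
The App run held 1 GC box and the Adam10 run held 3, and neither held AGGTCA or AGAACA. Ncstn held 1 AGGTCA, 140 bases before the start, and Aph1a held 1 TGTTCT, 164 bases before the start. Of the members not shown, the first listed starts of Aplp1, Aplp2, Psen2 and Sorl1 held neither AGGTCA nor AGAACA. Another listed start held 2 TGTTCT for Psen2 and 1 for Sorl1. Among 32851 mouse promoter windows of the same length, 14.0% held AGGTCA, 16.1% held AGAACA and 32.7% held GGGCGG on either strand. A match is a run of letters and was not tested as a binding site.

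Libraries held between 27188854 and 47113661 counts, and every member had at least 326 counts in each of them. Neuron and hippocampal neuron markers were abundant in all 10 mice, the latter summing to 1081 to 1638 CPM (counts scaled to the library size after TMM normalization) with void and 1329 to 1701 CPM with DHT. Markers of other cells differed between the groups: the summed level of 12 choroid plexus genes was 361 to 3259 CPM with void and 3894 to 5721 CPM with DHT, and that of 8 microglia genes was 420 to 499 CPM and 592 to 871 CPM. Neuron markers summed to 6987 to 7767 CPM with void and 6089 to 6964 CPM with DHT. No marker on the 7 lists was at 0 in any mouse. In bulk tissue, fewer cells of a type and less RNA per cell cannot be told apart. A GC index was computed for each library, the mean log2 level of the 10% of genes richest in G and C minus that of the 10% poorest, each gene taken relative to its mean over all mice. DHT mice 6 and 5 had the highest index (0.63 and 0.39), followed by void mouse 9 (0.31), while the other 7 mice lay between -0.32 and 0.03. DHT mice 5 and 6 therefore stood apart from DHT mice 1, 2 and 3, and results are given with and without them where they matter. The library numbers of void mice all came before those of DHT mice, so the order of the libraries cannot be told apart from the treatment.

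Compared per kilobase of exon, the members spanned a wide range of levels in hippocampus. Aplp1 was the most abundant at 263 ± 37.1 CPM per kilobase (SD over all 10 mice), followed by App at 121 ± 7.82, Aplp2 at 95.1 ± 2.62 and Sorl1 at 52.7 ± 5.34. The alpha secretase gene Adam10 was at 28.8 ± 2.03 CPM per kilobase and the beta secretase gene Bace1 at 20.6 ± 0.958. Of the gamma secretase genes, Ncstn was at 14.6 ± 1.3, Aph1a at 4.97 ± 0.603 and Psen2 at 3.07 ± 0.330 CPM per kilobase. No pair of neighbours in this order overlapped over the 10 mice: the ranges of Bace1 and Ncstn came near each other, with 18.8 as the lowest value of Bace1 and 17.1 as the highest of Ncstn. Lengths were unions of all annotated exons, 12996 bases for App against 3017 for Aplp1, so the level of App per length is low to the extent that some of its exons are seldom used.

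None of the 9 members passed the test between DHT-treated and void-treated females. With edgeR's quasi-likelihood test, 0 of 9 were higher or lower at a Benjamini-Hochberg adjusted p under 0.05 over all genes tested, against 5.48% of all genes. At an unadjusted p under 0.05, 1 member (Aph1a) was higher and 0 were lower, against 17.4% of all genes in either direction. DESeq2 and limma-voom also called 0 members, and each had 1 at an unadjusted p under 0.05. The median log2 fold change of the members was 0.04, beside 0.0094 over all genes tested. With each mouse left out in turn, 0 members were called in all 10 fits. Without DHT mice 5 and 6, 0 members were called and 0 had an unadjusted p under 0.05. With the GC index as a covariate, 0 members were called, 3 were higher at an unadjusted p under 0.05 and 0 were lower. That fit called 9.23% of all genes, and its share of all genes at an unadjusted p under 0.05 was not computed.

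**Figure D1:**
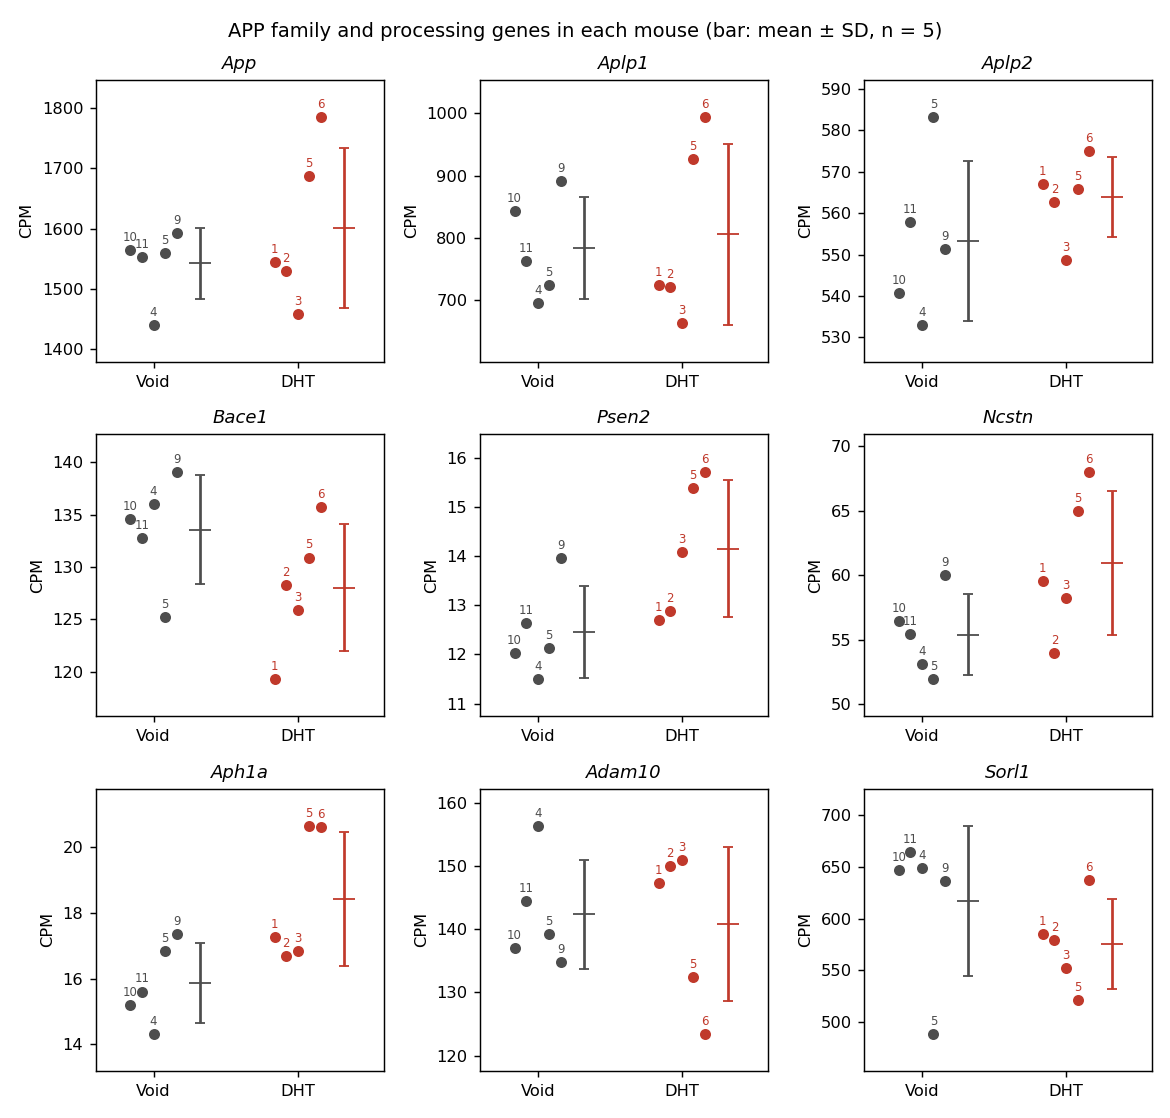
Level of each of the 9 members in CPM (vertical axes, which do not start at 0) in 5 void-treated mice (grey) and 5 DHT-treated mice (red); small numbers name the mice and bars show the group mean ± SD. The groups overlap for all 9 genes, and DHT mice 5 and 6 sit at the top of the DHT group for App, Aplp1, Psen2, Ncstn and Aph1a and at its foot for Adam10.

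App (ENSMUSG00000022892) itself was at 1565, 1553, 1441, 1560 and 1593 CPM in void mice 10, 11, 4, 5 and 9. In DHT mice 1, 2, 3, 5 and 6 it was at 1545, 1530, 1458, 1688 and 1785 CPM. DHT mice 5 and 6 were above every void mouse, and the other 3 DHT mice lay within the void range. The means were 1543 ± 58.8 CPM with void and 1601 ± 133 CPM in the DHT group (n = 5 each, SD). The log2 fold change was 0.05 with an SE of 0.06 (edgeR, adjusted p = 0.752), and its 95% interval ran from -5.76% to 14.3%. Without DHT mice 5 and 6, the log2 fold change of App was -0.03.

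Aplp1 (ENSMUSG00000006651), a relative of App made mainly in the nervous system, was at 844, 762, 696, 725 and 891 CPM in void mice 10, 11, 4, 5 and 9. It was at 725, 720, 663, 927 and 994 CPM in DHT mice 1, 2, 3, 5 and 6. DHT mouse 3 was the lowest of all 10 mice and DHT mice 5 and 6 the highest, so the spread within the DHT group covered that of the void group. Its log2 fold change was 0.04 with an SE of 0.12 (edgeR, adjusted p = 0.916), with a 95% interval from -0.21 to 0.29, and it was -0.16 without DHT mice 5 and 6.

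Aplp2 (ENSMUSG00000031996), the relative that most tissues make, varied least of the family. It ranged from 533 to 583 CPM in void mice and from 549 to 575 CPM in DHT mice, with a within-group SD of 0.05 and 0.02 on the log2 scale. Its log2 fold change of 0.03 with an SE of 0.05 (edgeR, adjusted p = 0.841) had a 95% interval from -4.84% to 9.16%, the narrowest among the 9 members. With TMM scaling, a difference above 10% in Aplp2 thus lay outside the interval of this comparison. The bound depends on the scaling. With normalization on neuron genes, the Aplp2 log2 fold change was 0.15 with an SE of 0.06 (edgeR, adjusted p = 0.139). The median over all genes was 0.13 in that fit.

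The genes of the alpha and beta cuts did not differ beyond the spread between mice. Adam10 (ENSMUSG00000054693) was at 137, 144, 156, 139 and 135 CPM in void mice 10, 11, 4, 5 and 9, and at 147, 150, 151, 132 and 124 CPM in DHT mice 1, 2, 3, 5 and 6. Its lowest mice were DHT mice 6 and 5, the same mice that were highest for App. DHT against void gave a log2 fold change of -0.02 with an SE of 0.07 (edgeR, adjusted p = 0.950), with a 95% interval from -0.17 to 0.13, and it was 0.07 without those mice.

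Bace1 (ENSMUSG00000032086) was at 135, 133, 136, 125 and 139 CPM in void mice 10, 11, 4, 5 and 9. In DHT mice 1, 2, 3, 5 and 6 it was at 119, 128, 126, 131 and 136 CPM. DHT mouse 1 was the lowest and void mouse 9 the highest, and 4 of the 5 DHT mice lay within the void range. For Bace1 the log2 fold change was -0.06 with an SE of 0.05 (edgeR, adjusted p = 0.629), with a 95% interval from -0.17 to 0.05. Annotated exons on the opposite strand, those of Rnf214, Gm49338 and Gm16536, overlap 32.5% of the exon length of Bace1 in all, and reads from both strands could be mixed there because the counting setting for strand is not given in the sources used here.

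The genes of gamma secretase had the highest fold changes among the members, and none passed the test. Aph1a (ENSMUSG00000015750), a scaffold subunit, was at 15.2, 15.6, 14.3, 16.8 and 17.4 CPM in void mice 10, 11, 4, 5 and 9. It was at 17.3, 16.7, 16.8, 20.6 and 20.6 CPM in DHT mice 1, 2, 3, 5 and 6. DHT mice 5 and 6 were above all void mice, and the other 3 overlapped the highest void mice. For Aph1a the log2 fold change was 0.21 with an SE of 0.09 (edgeR, unadjusted p = 0.0334 and adjusted p = 0.232 over all genes tested). Without DHT mice 5 and 6 it was 0.09. Over all alternatives the adjusted p ranged from 0.0373 to 0.859, and the only value under 0.05 came from normalization on neuron genes, under which the median over all genes was itself 0.13. Exons of Car14 on the opposite strand overlap 12.9% of the exon length of Aph1a.

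Psen2 (ENSMUSG00000010609), which encodes presenilin-2, a catalytic subunit, was at 12.0, 12.6, 11.5, 12.1 and 14.0 CPM in void mice 10, 11, 4, 5 and 9, and at 12.7, 12.9, 14.1, 15.4 and 15.7 CPM in DHT mice 1, 2, 3, 5 and 6. All DHT mice were above 4 of the 5 void mice, and void mouse 9 lay among them. For Psen2 the log2 fold change was 0.18 with an SE of 0.09 (edgeR, adjusted p = 0.309), with a 95% interval from -0.0065 to 0.37. It was 0.12 without DHT mouse 5, and 0.09 (edgeR, adjusted p = 0.636) without DHT mice 5 and 6. Two-sided exact permutation tests of each member alone, not adjusted for the 9 members, gave p = 0.0476 for Psen2, 0.0635 for Aph1a, 0.0952 for Ncstn and 0.159 to 0.825 for the other 6, where the smallest p that 5 mice against 5 allow is 0.00794.

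Ncstn (ENSMUSG00000003458), the subunit that receives the substrate, was at 56.4, 55.5, 53.1, 52.0 and 60.0 CPM in void mice 10, 11, 4, 5 and 9. It was at 59.6, 54.0, 58.3, 65.0 and 68.0 CPM in DHT mice 1, 2, 3, 5 and 6. Again DHT mice 5 and 6 lay above every void mouse and the other 3 DHT mice did not. For Ncstn the log2 fold change was 0.14 with an SE of 0.07 (edgeR, adjusted p = 0.355), with a 95% interval from -0.02 to 0.29. It was 0.08 without DHT mouse 5, and 0.05 (edgeR, adjusted p = 0.721) without DHT mice 5 and 6. Exons of Copa on the opposite strand overlap 4.91% of the exon length of Ncstn. Of 7 gamma secretase subunit genes in the table, the 3 members included, 6 had a positive log2 fold change, 3 had an unadjusted p under 0.05 and 0 were called, with a median log2 fold change of 0.18. Over all genes tested, 52.4% had a positive log2 fold change, 17.4% had an unadjusted p under 0.05 and 5.48% were called.

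Sorl1 (ENSMUSG00000049313) had the lowest log2 fold change of the members, -0.10 with an SE of 0.09 (edgeR, adjusted p = 0.634). It was at 647, 665, 649, 489 and 636 CPM in void mice 10, 11, 4, 5 and 9. It was at 586, 580, 553, 521 and 638 CPM in DHT mice 1, 2, 3, 5 and 6. Void mouse 5 was far below the other void mice, among which all were above 4 of the 5 DHT mice. Void mouse 5 also had the lowest sum of hippocampal neuron markers, 1081 CPM against 1495 to 1638 CPM in the other void mice. Its sum of general neuron markers went the other way. That sum was the highest of the void group, 7767 CPM against 6987 to 7546 CPM. The part of these marker levels in the Sorl1 result was not tested. The 95% interval of the Sorl1 log2 fold change ran from -0.29 to 0.09. Without void mouse 5, the log2 fold change was -0.17 with an SE of 0.06 (edgeR, unadjusted p = 0.0154 and adjusted p = 0.148).

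**Figure D2:**
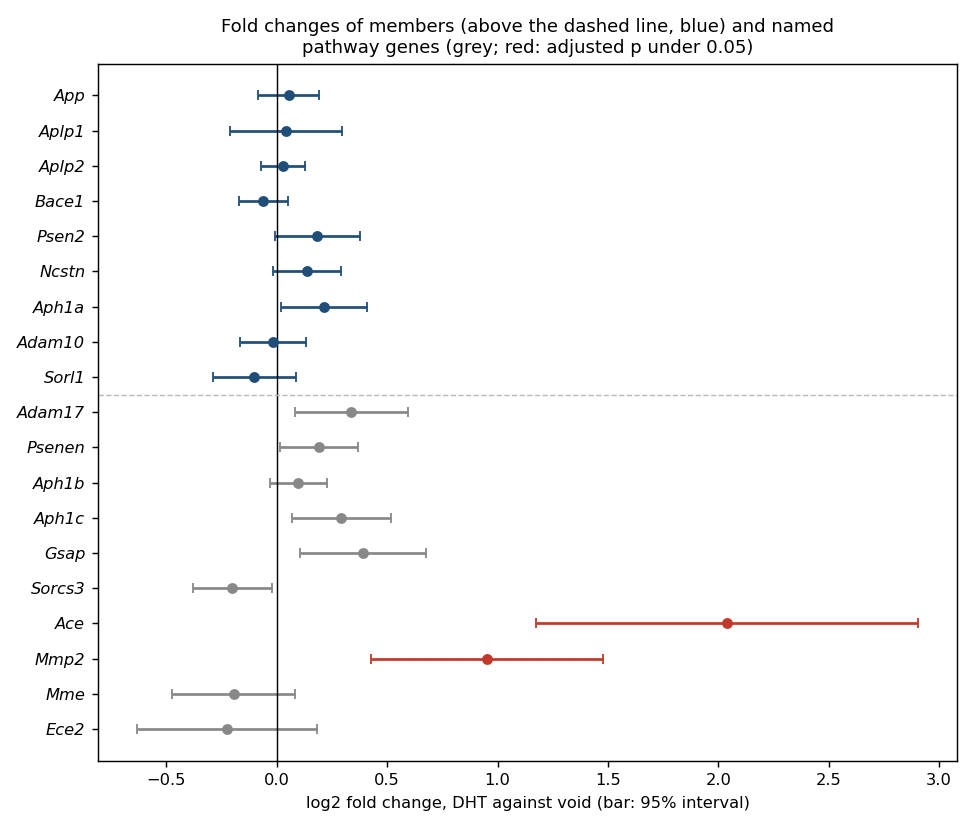
Log2 fold change between DHT-treated and void-treated females with its 95% interval, for the 9 members (blue, above the dashed line) and for other genes of amyloid precursor processing (grey, or red where the adjusted p was under 0.05). The intervals of 8 members include 0, that of Aph1a runs from 0.02 to 0.41, and Ace and Mmp2 are the genes in red.

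A shift shared by both members of a pair would leave their ratio as it was. For this reason 6 ratios of members were compared within each mouse, where the normalization of a library cancels. None of them set a secretase gene against App or its relatives. The ratio of Adam10 to Bace1, alpha against beta secretase, was 0.09 ± 0.10 on the log2 scale in void mice and 0.13 ± 0.19 in DHT mice (mean ± SD over 5 mice). The difference of 0.04 was within the spread of either group (exact permutation test, two-sided, p = 0.635, and 0.682 after Benjamini-Hochberg adjustment over the 6 ratios). DHT mice 1, 2 and 3 had ratios of 0.30, 0.23 and 0.26, above every void mouse, and DHT mice 5 and 6 had ratios of 0.02 and -0.14. Levels that move with the GC index need not cancel in a ratio. The lowest Adam10 to Bace1 ratios were in the mice with the highest index, DHT mice 6 and 5 and void mouse 9 (-0.05). The part of the index in the ratios was not tested. Leaving out DHT mice 5 and 6 gave a difference of 0.17 (exact permutation p = 0.0536, adjusted p = 0.321), and with 1 mouse left out in turn it ranged from 0.001, without DHT mouse 1, to 0.11, without DHT mouse 6. The ratios of Aplp1 and of Aplp2 to App each differed by -0.02 between the groups (exact permutation p = 0.682 and 0.635).

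Within gamma secretase, the log2 ratio of Psen2 to Ncstn was 0.05 higher and that of Aph1a to Ncstn 0.08 higher with DHT (exact permutation p = 0.270 and 0.190, adjusted p = 0.540 for both). The log2 ratio of Sorl1 to App was -1.33 ± 0.20 with void and -1.48 ± 0.13 in the DHT group (n = 5 each, SD), a difference of -0.15 (exact permutation p = 0.222, adjusted p = 0.540). The 5 DHT mice lay between -1.70 and -1.40. Of the void mice, 4 lay between -1.32 and -1.15 and mouse 5 at -1.67. Without void mouse 5, the difference was -0.23 with an exact permutation p of 0.00794, the smallest those mice allow, and an adjusted p of 0.0476. Over all alternatives, the adjusted p of this ratio ranged from 0.0476 to 0.774, and no other alternative brought it under 0.05. The difference was -0.07 without DHT mice 5 and 6.

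**Figure D3:**
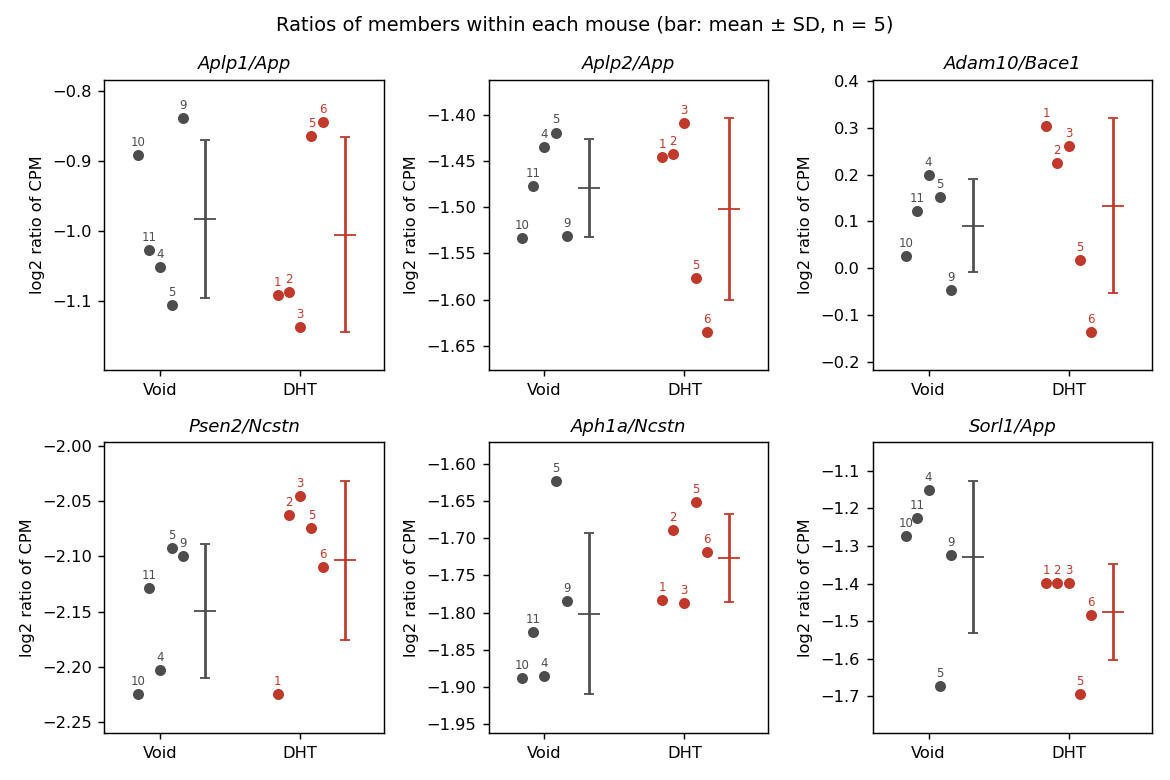
Log2 ratio of the CPM of 2 members within each mouse, for 6 pairs, in void-treated (grey) and DHT-treated mice (red), with the group mean ± SD and small numbers naming the mice. The groups overlap in all 6 panels, and in the Sorl1/App panel void mouse 5 lies below the other void mice.

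Some of the members varied together from mouse to mouse and others did not. In 45 relations, of the 9 members with each other and with the GC index, group means were subtracted and mice were permuted within groups, and p values were adjusted over the 45. Of the 36 pairs of members, 10 had an adjusted p of r under 0.05 (exact permutation), 6 with a positive r among App, Aplp1, Psen2, Ncstn and Aph1a and 4 with a negative r, all between Adam10 and one of App, Aplp1, Ncstn or Aph1a. In 7 of these 10 pairs rho passed as well. The share of all gene pairs that would pass was not computed, so these counts cannot be called particular to the members. Aplp2, Bace1 and Sorl1 passed with no other member, in 8 pairs each. App and Aplp1 moved together (Pearson r = 0.94, exact permutation p = 0.000208, adjusted p = 0.00234; Spearman rho = 0.99, exact permutation p = 0.000417, adjusted p = 0.00313; n = 10), with r = 0.88 without the 2 mice farthest from the median of App. App and Adam10 were opposed (r = -0.97 and rho = -0.99, exact permutation p = 6.94e-05 for each, the smallest these permutations can give, adjusted p = 0.00156; n = 10), with r = -0.97 without the farthest 2 mice and -0.93 without DHT mice 5 and 6. Aph1a followed App as well (r = 0.89, exact permutation p = 0.00264, adjusted p = 0.0148; rho = 0.92, exact permutation p = 0.00604, adjusted p = 0.0302; n = 10) with r = 0.90 without the farthest 2 mice. Bace1 did not pass with App (r = 0.49, exact permutation p = 0.218; rho = 0.62, exact permutation p = 0.106; adjusted p = 0.317 and 0.177; n = 10).

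These relations moved with the GC index of the libraries. Of the 9 members, 6 passed with the index by r, 5 with a positive r and 1 with a negative r. The share of all genes tested that would pass with the index was not computed. The gamma secretase genes were among them. Ncstn, Aph1a and Psen2 had r = 0.92, 0.85 and 0.83 (exact permutation, adjusted p = 0.00893, 0.0449 and 0.0450; n = 10). Their rho was 0.90, 0.87 and 0.72 (adjusted p = 0.0147, 0.0324 and 0.116), so Psen2 did not pass by rho. Bace1 did not pass (r = 0.71, adjusted p = 0.0798). Aplp1, with a GC content of 59.4% in its longest annotated transcript, followed the index closely (r = 0.99 and rho = 0.98, exact permutation p = 6.94e-05 for each, adjusted p = 0.00156; n = 10), and r was 0.99 without the 2 mice farthest from the median index. App, at 46.1% GC, followed it too (r = 0.92, exact permutation p = 0.000139, adjusted p = 0.00208; rho = 0.96, exact permutation p = 0.000208, adjusted p = 0.00313; n = 10), with r = 0.89 without those mice. Adam10, at 42.1% GC, ran against it (r = -0.92, exact permutation p = 0.000347; rho = -0.94, exact permutation p = 0.000278; adjusted p = 0.00313 for each; n = 10), with r = -0.86 without those mice. Aplp2, at 48.4% GC, and Sorl1, at 50.7%, did not pass with the index (r = 0.23 and 0.25, rho = 0.41 and 0.37, exact permutation p of r = 0.470 and 0.427, adjusted p = 0.542 and 0.534; n = 10). All values of a mouse come from 1 library, so the points of each relation share its composition and depth. In a fit that held the index as a covariate (chosen after seeing the data), 0 members were called. The standard error of the Aplp1 log2 fold change fell to 0.04, and its log2 fold change was -0.06 (edgeR, adjusted p = 0.389). At an unadjusted p under 0.05 (edgeR), 3 members were higher with the covariate and 0 lower, against 1 higher without it. These were Aph1a, Psen2 and Ncstn. Their log2 fold changes were 0.16, 0.14 and 0.10 with the covariate, and 0.21, 0.18 and 0.14 without it. Over all genes tested, 9.23% were called at an adjusted p under 0.05 with the covariate and 5.48% without it. The share of all genes at an unadjusted p under 0.05 was not computed for the covariate fit.

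**Figure D4:**
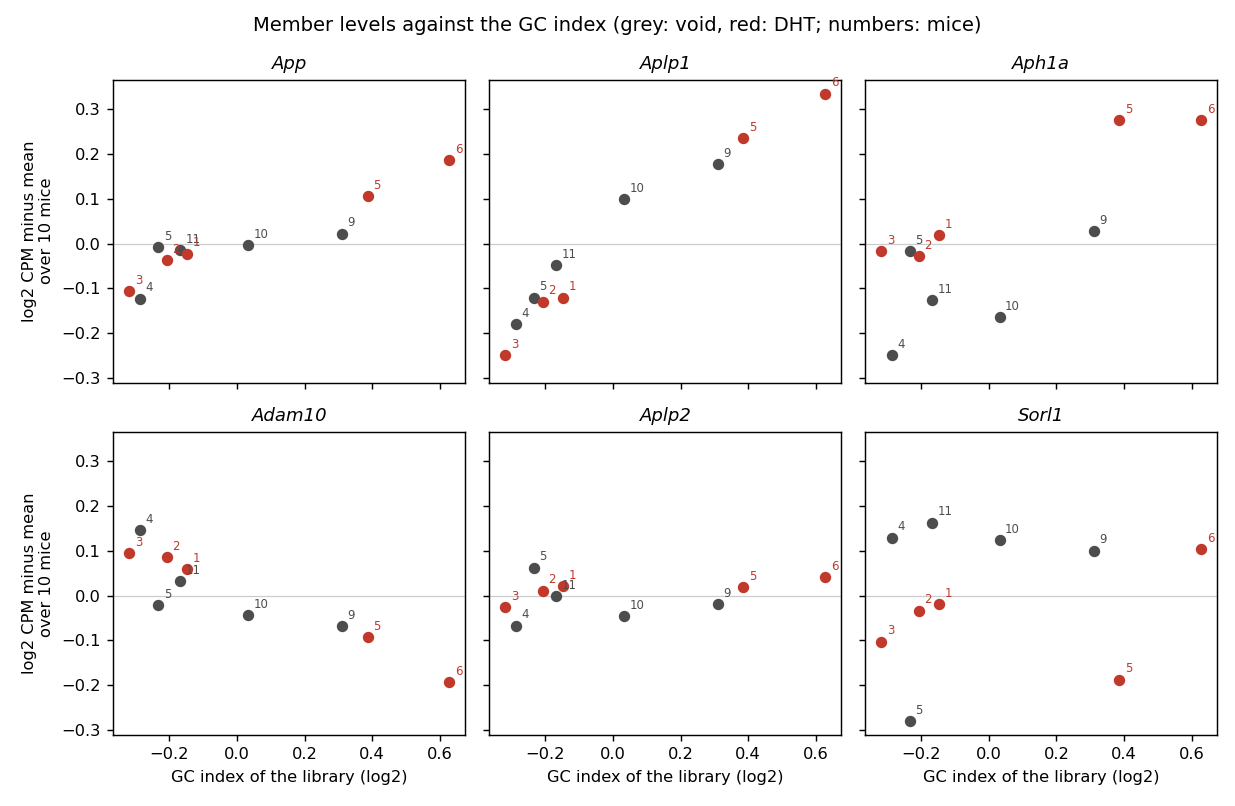
Log2 CPM of 6 members minus each gene's mean over the 10 mice (vertical axis) against the GC index of the library (horizontal axis, log2), for void-treated (grey) and DHT-treated mice (red) named by number. Aplp1, App and Aph1a are highest in DHT mice 5 and 6, which have the highest index, Adam10 is lowest there, and Aplp2 stays within a narrow band.

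Among 10200 genes with a mean of at least 10 CPM, those whose levels followed App most closely over the 10 mice, with group means subtracted, were Srcin1, Mllt6, Cdk5r2, Zfp385a and Scrt1. Their Pearson r with App lay between 0.98 and 0.99 and is given as a description, and the GC content of their longest annotated transcripts was 58.0% to 64.8%, against 46.1% for App. By the same measure Aplp1 ranked 184, Aph1a 635, Ncstn 1659 and Psen2 2141, whereas Adam10 ranked 10187. Many genes outside the pathway thus followed App more closely than these members did.

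Other genes of the pathway were taken from a list of 54, of which 53 were tested. With edgeR's quasi-likelihood test, 2 were higher with DHT and 0 lower, at an adjusted p under 0.05, against 5.22% and 0.261% of all genes tested. At an unadjusted p under 0.05, 12 were higher and 1 was lower, where 13.1% of all genes were higher. By role, 0 of 7 other secretase genes, 0 of 14 tested modulators of the secretases, 0 of 9 adaptors of the APP tail and 0 of 15 sorting and endocytosis genes were called. The median log2 fold changes of these groups were 0.17, 0.11, -0.01 and 0.0076. With the GC index as a covariate, 7 of the 53 were called higher and 1 lower, against 7.63% and 1.61% of all genes. In the fit without DHT mice 5 and 6, 5 were called higher and 1 lower, against 4.26% and 0.619% of all genes. DESeq2 called 3 of them higher, against 5.84% of all genes, the third being Timp3, which is named here after its values were seen. Timp3, an inhibitor of metalloproteases including ADAM10, was at 145 ± 16.2 CPM with void and 183 ± 21.9 CPM with DHT (mean ± SD over 5 mice), and its log2 fold change was 0.33 with an SE of 0.09 (edgeR, adjusted p = 0.0661). The adjusted p was 0.0462 with DESeq2 and ranged from 0.0179 to 0.685 over all alternatives, and Timp3 was also called with normalization on neuron genes, with the GC index as a covariate and without void mouse 5. Exons of Syn3 on the opposite strand overlap 21.3% of the exon length of Timp3.

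Both called genes were among the 8 amyloid-beta degrading enzymes. Ace, which encodes angiotensin-converting enzyme, was at 24.6, 21.8, 46.1, 17.6 and 93.1 CPM in void mice 10, 11, 4, 5 and 9, and at 218, 136, 148, 151 and 184 CPM in DHT mice 1, 2, 3, 5 and 6. Every DHT mouse was above every void mouse, a separation seen in 6.27% of all genes tested in either direction. For Ace the log2 fold change was 2.04 with an SE of 0.40 (edgeR, adjusted p = 0.0133). Mmp2, a secreted matrix metalloproteinase, was at 2.88 ± 1.14 CPM with void and 5.58 ± 1.29 CPM in the DHT group (n = 5 each, SD). The log2 fold change of Mmp2 was 0.95 with an SE of 0.24 (edgeR, adjusted p = 0.0400), and void mouse 9, at 4.78 CPM, lay among the DHT mice. Ace alone of the 53 genes also passed a log2 fold change of 1, as 2.19% of all genes tested did.

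The summed level of the 12 choroid plexus genes was, like both of these enzymes, higher with DHT. Void mouse 9, the highest void mouse for Ace and Mmp2, had the highest choroid plexus sum of the void group (3259 CPM), and DHT mouse 1, the highest of all for both enzymes, had the highest sum overall (5721 CPM). Within groups the order did not always match. Void mouse 4 had a higher sum than void mouse 10 (1717 and 928 CPM) but less Mmp2 (2.56 and 2.99 CPM). DHT mouse 5 had the lowest sum of its group (3894 CPM) but more Ace than DHT mice 2 and 3. The relation within groups was not tested. Of the 12 marker genes, 5 were called higher and 0 lower, and their median log2 fold change was 2.11. In a fit with a choroid plexus score as covariate, the log2 fold change was 0.72 for Ace (edgeR, adjusted p = 0.576) and 0.18 for Mmp2 (adjusted p = 0.968). In that fit 0 of all genes tested were called. The score did not overlap between the groups, at most 0.79 with void and at least 1.11 with DHT. This fit therefore cannot tell choroid plexus content apart from treatment. Without DHT mice 5 and 6, the adjusted p was 0.0379 for Ace and 0.0851 for Mmp2. Over all alternatives the adjusted p ranged from 0.000551 to 0.576 for Ace and from 0.00293 to 0.968 for Mmp2. With a single mouse left out, Ace was called in 10 of 10 fits and Mmp2 in 2 of 10, and the 8 fits that lost Mmp2, which left out void mouse 10, 11, 4 or 5 or DHT mouse 1, 3, 5 or 6, gave it an adjusted p of 0.0619 to 0.123.

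**Figure D5:**
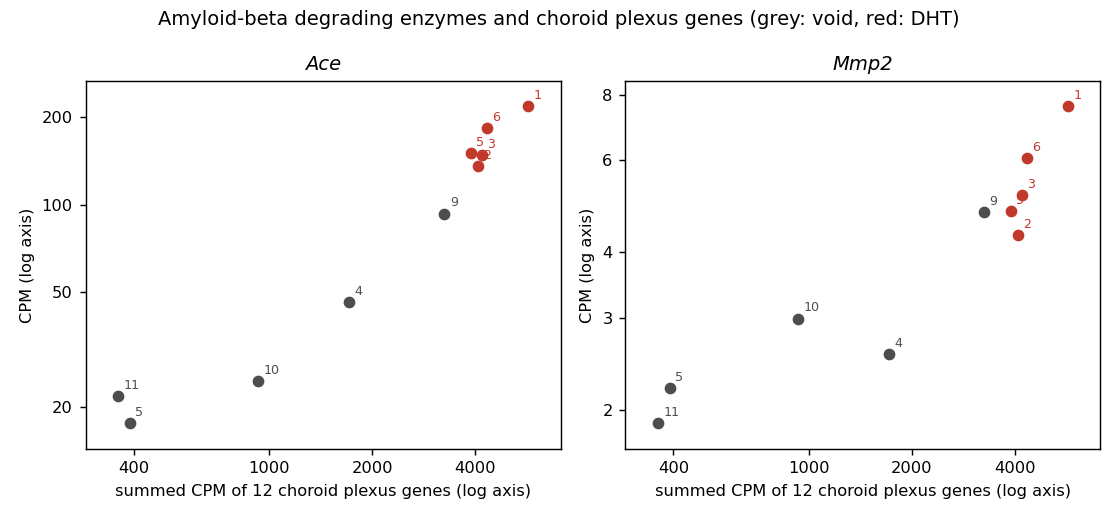
CPM of Ace and of Mmp2 (vertical axes, log scale) against the summed CPM of 12 choroid plexus marker genes (horizontal axes, log scale) in void-treated (grey) and DHT-treated mice (red) named by number. Both enzymes are lowest in void mice 5 and 11, which have the lowest sums (390 and 361 CPM), and highest in DHT mouse 1.

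The other degrading enzymes were not called. Mme, which encodes neprilysin, was at 15.2 ± 2.83 CPM with void and 13.3 ± 1.44 CPM in the DHT group (n = 5 each, SD), which is -0.19 in log2 with an SE of 0.13 (edgeR, adjusted p = 0.505). Ece2, an endothelin-converting enzyme, had the lowest log2 fold change of the 53 genes, -0.23 with an SE of 0.19 (edgeR, adjusted p = 0.621), at 1.48 ± 0.226 and 1.27 ± 0.291 CPM. Gm49333, a gene on the same strand, shares 57.5% of the exon length of Ece2, so reads may be divided between the 2 genes and the value of Ece2 is uncertain. Between Ece2 and Mme lay Sorcs3, a sorting receptor of the same family as Sorl1, at -0.20 with an SE of 0.08 (edgeR, adjusted p = 0.216). At the upper end, after Ace and Mmp2, Gsap, which encodes the gamma secretase activating protein, was at 9.98 ± 0.957 CPM with void and 13.1 ± 2.62 CPM in the DHT group (n = 5 each, SD), which is 0.39 in log2 with an SE of 0.13 (edgeR, adjusted p = 0.122).

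Further secretase genes are named after their values were seen. Adam17, the other well-known alpha secretase, was at 24.1, 19.6, 21.6, 19.3 and 22.6 CPM in void mice 10, 11, 4, 5 and 9, and at 33.6, 24.4, 31.1, 24.2 and 22.2 CPM in DHT mice 1, 2, 3, 5 and 6. DHT mice 1 and 3 stood above all others and the remaining DHT mice were near the highest void mice. For Adam17 the log2 fold change was 0.34 with an SE of 0.12 (edgeR, adjusted p = 0.138), and without DHT mice 5 and 6 it was 0.47 with an adjusted p of 0.0424, the lowest of a range up to 0.967 over all alternatives. Psenen, the smallest gamma secretase subunit, was at 16.1 ± 1.27 CPM with void and 18.4 ± 1.64 CPM in the DHT group (n = 5 each, SD), which is 0.19 in log2 with an SE of 0.08 (edgeR, adjusted p = 0.244). Aph1b and Aph1c, close relatives between which reads may be divided, had log2 fold changes of 0.10 and 0.29 (standard errors 0.06 and 0.10, adjusted p = 0.468 and 0.143).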

How the data were processed

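Hippocampal mRNA libraries from 5 void-treated and 5 DHT-treated P301S females were sequenced as paired 100 bp reads by the study. The authors trimmed reads with HTStream, aligned them with STAR 2.7.10b (per the submitters' processing notes) and deposited the counts of each gene unnormalized. The methods name mm10 and the processing notes name mm39, and the annotation release and strand setting are not given in the sources used here, so no coordinates of the counted genes are given. Symbols, exon lengths and GC content came from GENCODE M21, matched without version (51948 of 56884 identifiers had a symbol, and 98.1% of genes tested had a GC value). Promoters are RefSeq's, in GRCm38.p6.

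Low genes were removed by filterByExpr of edgeR 4.0.16 (in R 4.3.3), libraries were scaled by TMM, and DHT was tested against void by quasi-likelihood, with Benjamini-Hochberg adjustment over all genes tested. The SE of a log2 fold change is its size over the root of F, and 95% intervals use the t distribution. Adjusted p values in the text are from this test unless another is named. Ratios used log2 CPM with a prior count of 2. DESeq2 1.42.0, limma-voom (limma 3.58.1), other normalizations and filters, covariates and leaving out mice were alternatives. The GC index and the omission of DHT mice 5 and 6 were chosen after seeing the data. The tests were tested on simulated data. There edgeR called 51% of genes changed by 0.5 in log2 and 81% of those changed by 1. Of its calls, 7.69% were unchanged genes. Smaller changes were not simulated. Replicates were not near-identical libraries: the chi-square per gene between libraries of a group was at least 9.68.

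The members and lists were chosen with earlier results of these data known. Named were all members, pathway genes called or among the 3 highest or 3 lowest log2 fold changes, and the 5 genes most like App. Others are marked as chosen later.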

Additional observations from a re-analysis of the deposited data

Results flagged for a closer look

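Of 50 sets of 5 mice, 3 had 1 mouse whose distance to its neighbour took up more than 0.71 of the whole range, and chance alone would give 2.5. Sorl1 in void mouse 5 was the lowest of its group, with a gap of 0.839 of the range (489 CPM, against 636 to 665 CPM in the other void mice). App in void mouse 4 was the lowest of its group, with a gap of 0.737 of the range (1441 CPM, against 1553 to 1593 CPM). The log2 ratio of Sorl1 to App in DHT mouse 5 was the lowest of its group, with a gap of 0.7103 of the range (-1.70, against -1.48 to -1.40).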

How the results depend on the processing

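The paper states that littermates were randomized to treatment, and the sample labels give no litter, so no paired or blocked analysis was possible. Mouse number 5 occurs in both groups and was not taken as a pair. Across 21 alternatives for each of the 9 members, 172 of 189 log2 fold changes kept their direction and stayed on the same side of the threshold, 16 reversed and 1 passed. With normalization on neuron genes, 1 member was called (Aph1a, 0.33) and 6 pathway genes were higher (9.47% of all genes). Bace1 (0.0533), Adam10 (0.105) and Sorl1 (0.0133) reversed, so all 9 members were positive. At an unadjusted p under 0.05 (edgeR), 5 members were higher, App (0.169) and Aplp2 (0.146) among them. The median over all genes was 0.126 in that fit, and its share of all genes at that unadjusted p was not computed. With the choroid plexus covariate, 0 pathway genes were higher and Aplp1 (-0.0402), Mme (0.163) and Aph1c (-0.0018) reversed. With the GC index covariate, 7 pathway genes were higher and 1 lower, and Aplp1 (-0.0552) and Adam10 (0.0217) reversed. Without DHT mice 5 and 6, 5 were higher and 1 lower, and App (-0.0303), Aplp1 (-0.158), Adam10 (0.0692) and the Aplp2/App ratio (0.0465) reversed. With 1 mouse left out in turn, 1 to 3 pathway genes were higher. In those fits log2 fold changes ranged from -0.0025 to 0.070 for App, -0.0511 to 0.091 for Aplp1, -0.0104 to 0.0468 for Aplp2 and -0.0664 to 0.0281 for Adam10. The ratio differences ranged from -0.0624 to 0.0136 for Aplp1/App, -0.046 to 0.0104 for Aplp2/App and -0.233 to -0.0912 for Sorl1/App. The cause was not tested. Members had at least 326 counts in each mouse, and counting error was not separated from the spread between mice.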

Other observations

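Some genes of the pathway were called in the fit with the GC index as a covariate and in the fit without DHT mice 5 and 6, both added after the data were examined. Of the 8 and 6 pathway genes called in these fits, 5 were in both: Ace, Adam9, Tmed10, Cd2ap and Apba1. Of all genes tested, 9.23% were called in the first fit and 4.88% in the second. Adam9, another metalloprotease able to cut APP, had a log2 fold change of 0.17 in all 10 mice (edgeR, adjusted p = 0.214), 0.20 with the covariate (adjusted p = 0.0406) and 0.26 without these mice (adjusted p = 0.0405). Tmed10, a cargo receptor of the secretory pathway, had values of 0.17, 0.21 and 0.26 in the same order, with adjusted p values of 0.249, 0.0219 and 0.0437. Cd2ap, an adaptor of endocytosis and the actin skeleton, had values of 0.32, 0.40 and 0.49, with adjusted p values of 0.269, 0.00945 and 0.0446. It was at 53.9, 42.6 and 46.7 CPM in DHT mice 1, 2 and 3, above all void mice (26.9 to 38.9 CPM), and at 36.0 and 31.9 CPM in DHT mice 5 and 6. Apba1, a neuronal adaptor that binds the APP tail, had log2 fold changes of -0.17, -0.22 and -0.28, with adjusted p values of 0.303, 0.0329 and 0.0484. These 5 genes were picked for passing in both fits, which share 8 mice. Over all alternatives the adjusted p ranged from 0.0405 to 0.968 for Adam9, 0.0219 to 0.848 for Tmed10, 0.00945 to 0.765 for Cd2ap and 0.0329 to 0.976 for Apba1.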
